A study of Mus musculus with 4 samples.

Results

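The cytosolic ribosomal protein genes are described here in mouse natural killer (NK) cells, cytotoxic lymphocytes of the innate immune system, after exposure to DKK2. The genes were chosen by symbol (Rpl or Rps followed by a number, Rpsa, and the P-stalk genes Rplp0, Rplp1 and Rplp2, with no symbol that marks a pseudogene) and by level, with a minimum of 5 FPKM for the average of the 4 libraries. FPKM counts fragments, scaled by transcript length and by the number of mapped fragments. Of the 37305 rows of the deposited table, 84 match by symbol and 69 of these reach 5 FPKM. The level therefore chose the genes and is given as a description. The rule does not use the difference between the groups, but it was set with earlier results of these data known. NK cells came from spleens of C57BL/6 mice at postnatal day 56 and were cultured for 24 hours with 50 ng/ml of mouse IL-15, which keeps NK cells alive. One group of 2 libraries then had 200 ng/ml of DKK2 (Dickkopf 2, a secreted protein that binds Wnt co-receptors) for 24 hours more, and the other group of 2 libraries, called control here, was mock treated. No allele or transgene is named for either group. The sources used here do not say whether the 2 libraries of a group came from separate mice or cultures, so the p-values rest on a spread between libraries that may be technical.

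The cytosolic ribosome has a small subunit, which decodes the mRNA, and a large subunit, which joins amino acids. Each ribosomal protein is needed in about equal amount, and Rps and Rpl genes code for the proteins of the small and the large subunit. The P stalk, made of P0 with P1 and P2, is the arm of the large subunit that recruits translation factors. Most ribosomal protein mRNAs begin with a run of pyrimidines, the 5′ terminal oligopyrimidine (TOP) tract, through which mTOR signalling and the RNA-binding protein LARP1 set their translation. Their short, abundant mRNAs have also left many processed copies in mammalian genomes, most of them annotated as pseudogenes. IL-15 is known to engage mTOR signalling in NK cells.

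NK cell markers were detected in every library, 12 of 12, with a median between 549.6 and 691.4 FPKM. Not all of them were high: Itga2, the lowest, was at 6.05 to 9.77 FPKM. From the steps between low values, the depth of DKK2 replicate 1, DKK2 replicate 2 and control replicate 2 was 0.399, 0.401 and 0.351 of that of control replicate 1. Control replicate 1 also stands apart in its markers of other cells. It was the lowest library for 8 of 8 tested T cell markers, 7 of 7 of B cells, 10 of 11 of monocytes and macrophages, 8 of 8 of neutrophils and 4 of 4 of erythroid cells and platelets, but for 1 of 3 of dendritic cells. The summed neutrophil markers were 3523 and 126.0 FPKM with DKK2, against 1.06 and 64.9 FPKM in the controls, and 5 of 10 were listed at 0 in control replicate 1. All 8 tested neutrophil markers stood above both controls in both DKK2 libraries, against 11.8% of all genes tested. Summed T cell markers were 283.6 and 247.9 FPKM with DKK2, against 54.7 and 183.7 FPKM in the controls, with Cd8a and Cd8b1 listed at 0 in control replicate 1. The part of these cells in the ribosomal protein values was not tested. Bulk values cannot tell fewer cells of a type from less RNA per cell.

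Ribosomal protein transcripts were abundant in both groups. The median of the 69 genes was 190.3 and 215.6 FPKM in the DKK2 libraries, against 202.3 and 162.5 FPKM in the control libraries. They took 2.50% and 3.85% of all FPKM with DKK2, against 3.54% and 2.50% in the controls. That share also depends on rows that are not protein-coding. Of the FPKM of protein-coding genes they took 5.83% and 6.64% with DKK2, against 6.88% and 5.30% in the controls. By each measure both groups hold a higher and a lower library, and the groups overlap. Means over the 4 libraries ran from 5.10 to 3134 FPKM with a median of 221.7, although the ribosome holds these proteins in about equal number. There were 26 genes at or above 500 FPKM, 18 between 50 and 500, and 25 under 50.

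**Figure D1:**
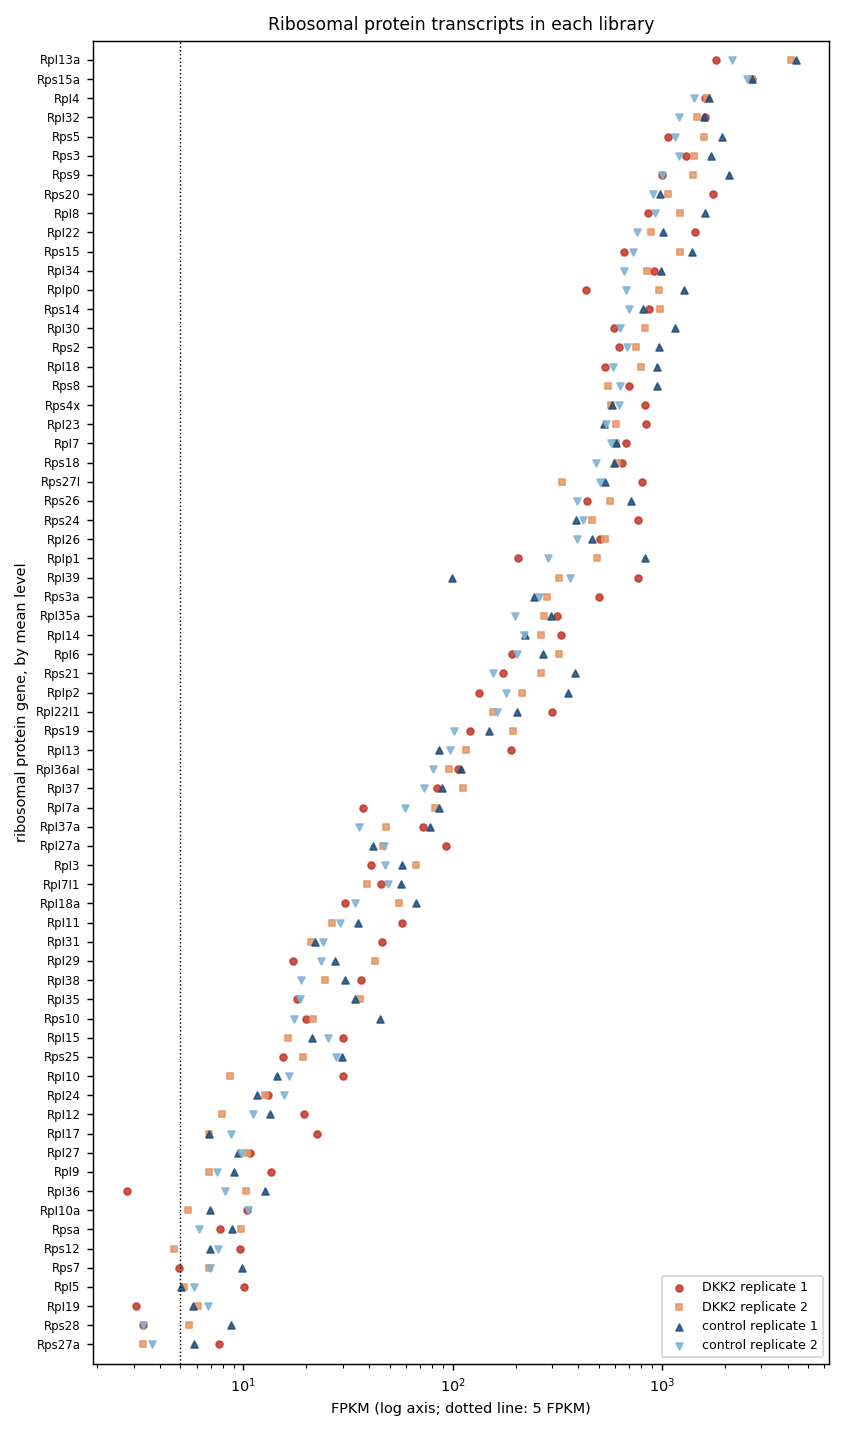
Level of 68 of the ribosomal protein genes (rows, ordered by mean) in each library, in FPKM on a log axis; DKK2 libraries are red and orange, control libraries dark and light blue, and the dotted line marks 5 FPKM. Gene means span 5.10 to 3134 FPKM, and most genes show libraries of both groups mixed.

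The highest level belonged to Rpl13a, a large subunit protein with a role in the GAIT complex that restrains translation of inflammatory mRNAs in human cells. It had 1825 and 4165 FPKM in the DKK2 libraries, against 4384 and 2163 FPKM in the controls, so each group held 1 high and 1 low library. Rps15a, a small subunit protein, was the steadiest of the abundant genes, with 2704 and 2712 FPKM in the DKK2 libraries, against 2695 and 2548 FPKM in the controls. Rpl4, a large subunit protein that lines the exit tunnel, had 1606 and 1645 FPKM with DKK2, against 1683 and 1423 FPKM in the controls. Rpl32 had 1607 and 1477 FPKM with DKK2, against 1594 and 1215 FPKM in the controls. In Rpl4 and Rpl32 the groups overlap.

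At the low end, the last genes inside the threshold were Rps27a (a ubiquitin fusion, mean 5.10 FPKM), Rps28 (5.20) and Rpl19 (5.42), and among the first outside it were Rpl28 (4.59) and Rpl21 (3.86). Of the 15 symbols under 5 FPKM, 12 passed the filter of the test (an average of 1 FPKM or more) and 3 did not. These are Rps23, at 0.557 to 1.21 FPKM, and Rpl3l and Rpl10l, both listed at 0 in all 4 libraries. Rpl3l is the muscle form of Rpl3, and Rpl10l is a testis form of Rpl10. Rps6, the small subunit protein that S6 kinase phosphorylates downstream of mTOR, was listed at low values. Its own row had 1.69 and 0.841 FPKM in the DKK2 libraries, against 0.832 and 1.20 FPKM in the controls. Its processed copies summed to a mean of 8.60 FPKM, against 1.14 FPKM in the own row.

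The design asks whether DKK2 alters gene expression in IL-15-cultured NK cells. None of the 69 ribosomal protein genes passed the threshold: limma on log2(FPKM + 1), with Benjamini-Hochberg adjustment over all 12275 genes tested, called 0 of 69 at an adjusted p under 0.05. The smallest adjusted p among them was 0.9996. Over all genes tested limma called 4, which is 0.0326%. At an unadjusted p under 0.05 it counted 1 of the 69, Rps25, against 1.84% of all genes tested. The median fold change of the 69 genes was 0.07 on the log2 scale (DKK2 minus control), with 40 higher and 29 lower with DKK2, and that of all genes tested was -0.05. The median standard error (SE) of a single gene was 0.37, several times that median. Both DKK2 libraries stood above both controls in 12 of 69 genes (17.4%), against 11.8% of all genes tested. Both stood below in 3 of 69 (4.35%), against 14.8%, so that the groups did not overlap in 15 (21.7%), against 26.5% of all genes tested. Among the 12 above were Rps3a, Rps14, Rps15a, Rps18, Rps20, Rps24, Rpl13, Rpl14, Rpl23, Rpl26 and Rpl27, and the 3 below were Rps7, Rps25 and Rpl7l1. Single fold changes ran from -0.78 (Rpl36) to 1.38 (Rpl39) on the log2 scale.

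The median over the 69 genes of control replicate 1 minus control replicate 2 was 0.31 on the log2 scale, larger than the difference between the groups. That of DKK2 replicate 1 minus DKK2 replicate 2 was 0.04. Against control replicate 1, DKK2 replicate 1 had a median difference of -0.04 and DKK2 replicate 2 of -0.19. Against control replicate 2 the medians were 0.22 and 0.25. The sign of the group's median thus followed the control library used: without control replicate 1 it was 0.29 with 55 genes higher, and without control replicate 2 it was -0.04 with 29 higher. Without DKK2 replicate 1 it was 0.03, and without DKK2 replicate 2 it was 0.16. In that last fit limma called 0 of the 69 genes, with 10 at an unadjusted p under 0.05, against 6.97% of all genes tested. Single genes reached their highest value in DKK2 replicate 1 (28 genes) or control replicate 1 (27) far more often than in DKK2 replicate 2 (11) or control replicate 2 (3). Of all 12275 genes tested, DKK2 replicate 1 was highest for 3405, DKK2 replicate 2 for 3156, control replicate 1 for 3882 and control replicate 2 for 1832. The lowest library of the 69 genes was DKK2 replicate 1 for 22 and control replicate 2 for 23. It was DKK2 replicate 2 for 15 and control replicate 1 for 9. Of all 12275 genes tested, DKK2 replicate 1 was lowest for 4548 and control replicate 2 for 2273. DKK2 replicate 2 was lowest for 3248 of these and control replicate 1 for 2206.

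**Figure D2:**
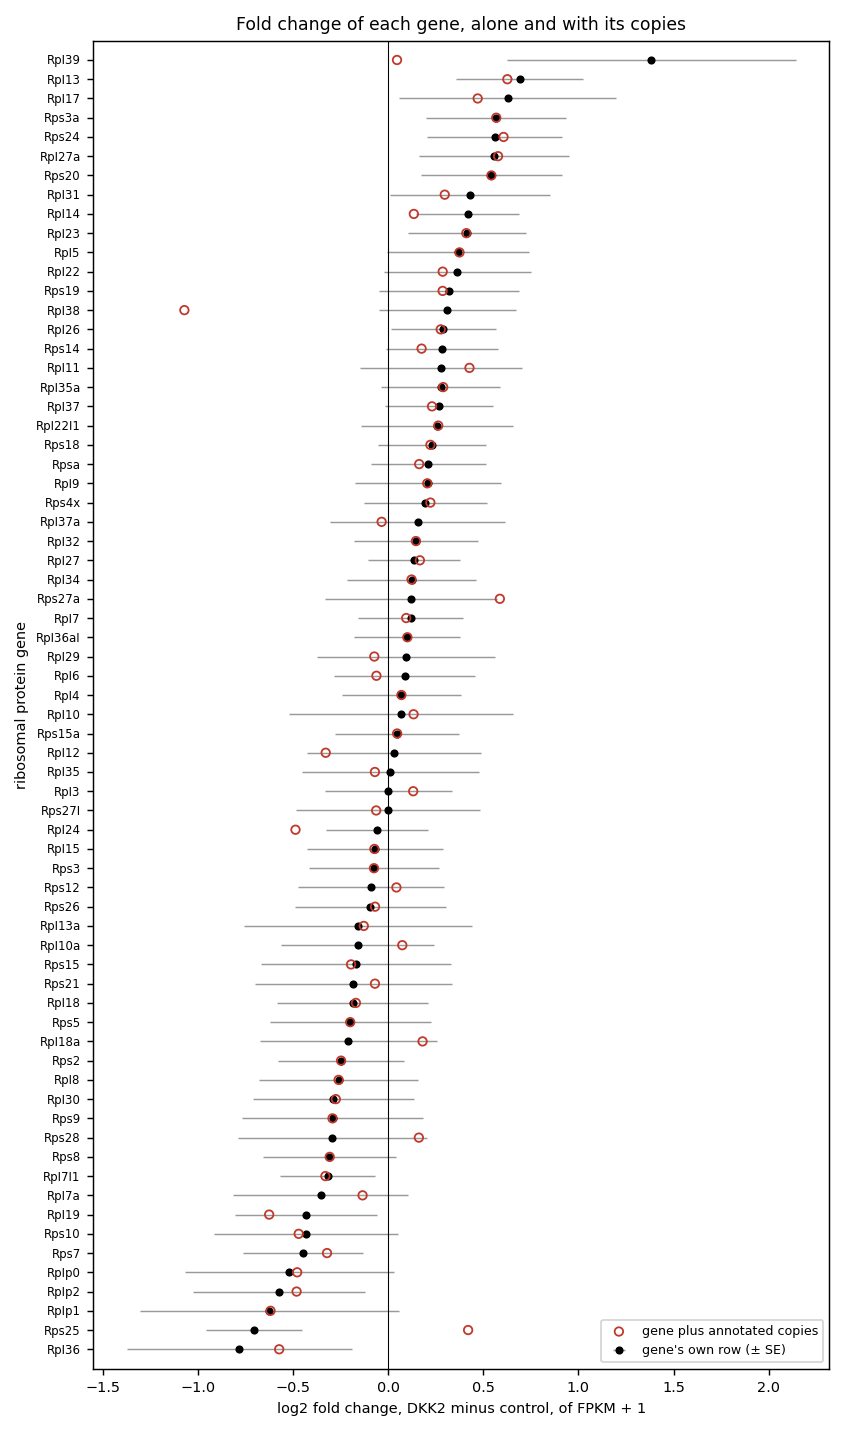
Log2 fold change of FPKM + 1, DKK2 minus control, for 68 of the genes (rows): filled points give the gene's own row with its limma SE, open circles the gene summed with its annotated processed copies. The error bars of most own rows cross 0, and Rps25, Rpl38 and Rpl39 have open circles far from their filled points.

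The 3 P-stalk genes had the lowest median fold change of the classes, -0.57, beside the small and the large subunit. Rplp0 codes for the stalk base P0, which binds 28S rRNA, and had 436.1 and 973.3 FPKM with DKK2, against 1285 and 677.9 FPKM in the controls. Rplp1 had 205.8 and 490.4 FPKM with DKK2, against 834.5 and 287.5 FPKM in the controls. Rplp2 had 134.3 and 215.6 FPKM with DKK2, against 356.5 and 180.2 FPKM in the controls. In all 3 genes DKK2 replicate 1 was lowest and control replicate 1 highest, and DKK2 replicate 2 stood above control replicate 2, so the groups overlap. Their log2 fold changes by limma were -0.52 ± 0.55 for Rplp0, -0.62 ± 0.68 for Rplp1 and -0.57 ± 0.45 for Rplp2 (SE, n = 2 each; adjusted p = 0.9996 for each). Without DKK2 replicate 1 these became 0.06, 0.001 and -0.23, and without control replicate 1 they became -0.06, 0.14 and -0.08. Without DKK2 replicate 2 they were -1.10, -1.25 and -0.91, and without control replicate 2 they were -0.98, -1.39 and -1.06. Eef2, elongation factor 2, which docks on this arm, did not pass either, with 291.2 and 874.1 FPKM with DKK2, against 973.2 and 646.9 FPKM in the controls.

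Among the 25 small subunit genes 11 were higher and 14 lower with DKK2, with a median log2 fold change of -0.07. Both DKK2 libraries stood above both controls in 7 of them (28.0%, against 11.8% of all genes tested) and below in 2 (8.0%, against 14.8%). Rps24, a small subunit protein mutated in human Diamond-Blackfan anaemia, had 770.5 and 466.3 FPKM with DKK2, against 390.5 and 422.6 FPKM in the controls (log2 fold change 0.56 ± 0.35 SE). Rps3a had 501.1 and 281.3 FPKM with DKK2, against 246.3 and 260.2 FPKM in the controls (0.57 ± 0.37). In both genes the DKK2 libraries lie above the controls, DKK2 replicate 1 well above and DKK2 replicate 2 close to them. Without DKK2 replicate 1 the values were 0.20 for Rps24 and 0.15 for Rps3a. Rps3, which sits at the mRNA entry and also acts in DNA repair, had 1310 and 1434 FPKM with DKK2, against 1721 and 1210 FPKM in the controls. Rpsa, the laminin receptor precursor, had 7.70 and 9.77 FPKM with DKK2, against 8.79 and 6.13 FPKM in the controls. Rps3 and Rpsa overlap between the groups.

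Rps7 and Rps25 were the small subunit genes below both controls in both DKK2 libraries. Rps7, a protein that binds MDM2, had 4.92 and 6.83 FPKM with DKK2, against 9.85 and 6.94 FPKM in the controls (-0.45 ± 0.32), and DKK2 replicate 2 is just below control replicate 2. Rps25, used by some viral internal ribosome entry sites, had the smallest unadjusted p of the 69 genes, 0.039 by limma (adjusted p = 0.9996). Its own row held 15.4 and 19.2 FPKM with DKK2, against 29.6 and 27.7 FPKM in the controls (-0.70 ± 0.25).

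Among the 41 large subunit genes outside the stalk, 29 were higher and 12 lower with DKK2, with a median log2 fold change of 0.12. Both DKK2 libraries stood above both controls in 5 of these 41 (12.2%) and below in 1 (2.44%), against 11.8% and 14.8% of all genes tested. Rpl13 had 190.3 and 115.8 FPKM with DKK2, against 86.1 and 97.5 FPKM in the controls (0.69 ± 0.33; unadjusted p = 0.095, adjusted p = 0.9996 by limma). Both DKK2 libraries are above both controls, and the value was 0.33 without DKK2 replicate 1 and 1.05 without DKK2 replicate 2. Rpl39, a small protein of the exit tunnel, had the highest fold change, with 772.9 and 321.7 FPKM with DKK2 against 99.8 and 363.0 FPKM in the controls (1.38 ± 0.76). DKK2 replicate 1 is high and control replicate 1 low, and the groups overlap. Leaving out 1 library gave 0.46 (without control replicate 1) to 2.31 (without control replicate 2). Rpl17 had 22.4 and 6.81 FPKM with DKK2, against 6.87 and 8.74 FPKM in the controls (0.63 ± 0.57). Only DKK2 replicate 1 is high there, and without it the value was -0.16. Rpl27a had 92.6 and 46.3 FPKM with DKK2, against 41.7 and 47.0 FPKM in the controls (0.55 ± 0.39), with only DKK2 replicate 1 high, and the value without it was 0.06. Rpl36 was the lowest of all 69, with 2.77 and 10.3 FPKM with DKK2 against 12.7 and 8.13 FPKM in the controls (-0.78 ± 0.59), and it was 0.01 without DKK2 replicate 1.

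**Figure D3:**
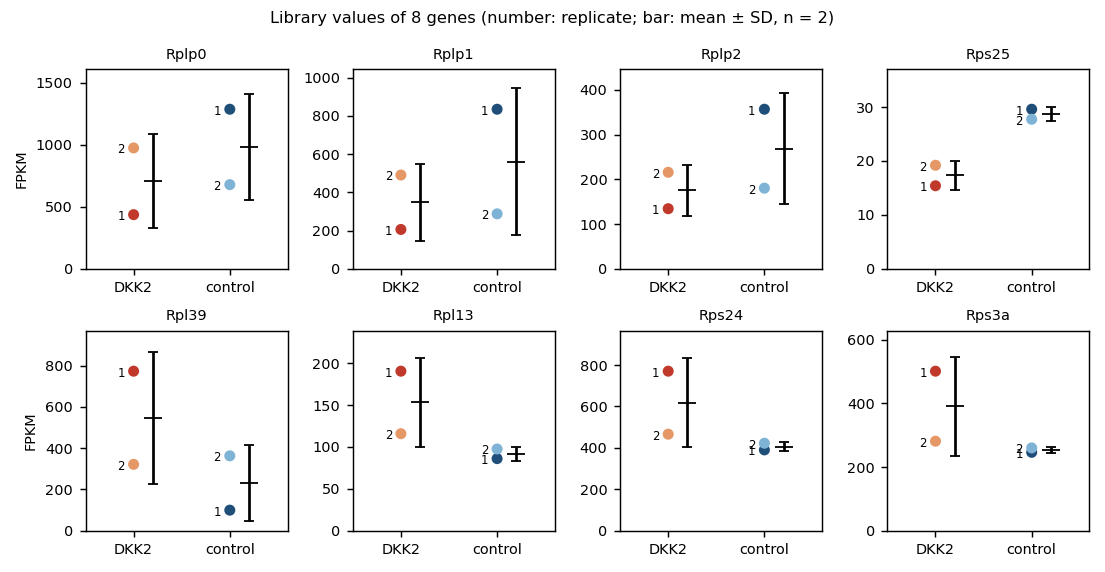
FPKM in each library for the 3 P-stalk genes and Rps25 (upper row) and for 4 genes with high fold changes (lower row); points are libraries, the number beside a point is its replicate, and bars show the mean ± SD of 2 libraries, DKK2 left and control right. The stalk genes are lowest in DKK2 replicate 1 and highest in control replicate 1, and Rpl13, Rps24 and Rps3a have DKK2 replicate 1 far above the other libraries.

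Rpl5 and Rpl11, large subunit proteins that with 5S rRNA bind MDM2 and so link ribosome assembly to p53, had low own rows. Rpl5 had 10.1 and 5.22 FPKM with DKK2, against 5.05 and 5.83 FPKM in the controls (0.37 ± 0.37). Rpl11 had 57.2 and 26.4 FPKM with DKK2, against 35.1 and 29.0 FPKM in the controls (0.28 ± 0.43). Rpl10, the protein added last to the large subunit, had 29.9 and 8.64 FPKM with DKK2, against 14.4 and 16.6 FPKM in the controls (0.07 ± 0.59). In all 3 own rows the DKK2 replicates lie on either side of at least 1 control, so the groups overlap. Processed copies of Rpl5 summed to a mean of 177.9 FPKM, against 6.55 FPKM in the own row. For Rpl11 these means were 55.1 and 36.9 FPKM, and for Rpl10 they were 3.73 and 17.4 FPKM.

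Paralogs of ribosomal proteins gave no pair in which one partner passed the test. Rpl22, which binds RNA outside the ribosome and is needed in T cell development, had 1447 and 891.9 FPKM with DKK2, against 1019 and 764.8 FPKM in the controls. Its paralog Rpl22l1 had 300.3 and 156.7 FPKM with DKK2, against 202.3 and 162.5 FPKM in the controls. Both were highest in DKK2 replicate 1. Rps27l, a p53 target in human cells, had 807.6 and 334.5 FPKM with DKK2, against 535.1 and 505.3 FPKM in the controls, while the parent Rps27 stood below the threshold, with 1.43 and 1.05 FPKM in the DKK2 libraries, against 3.66 and 1.33 FPKM in the controls. The controls of Rps27l lie between its DKK2 libraries. Rpl36al had 106.2 and 95.7 FPKM with DKK2, against 109.5 and 80.6 FPKM in the controls, and Rpl36a 3.82 and 2.71 FPKM with DKK2, against 5.11 and 2.37 FPKM in the controls. Rpl7l1, found in precursors of the large subunit in human cells, had 45.7 and 39.2 FPKM with DKK2, against 56.9 and 49.2 FPKM in the controls, below both controls in both libraries (-0.32 ± 0.25). Rpl7 had 678.4 and 601.2 FPKM with DKK2, against 601.3 and 575.3 FPKM in the controls. Rpl3 had 40.7 and 67.0 FPKM with DKK2, against 57.5 and 47.5 FPKM in the controls, with a fold change of 0.001 ± 0.33. Rpl39l, a paralog of Rpl39 abundant in testis, was at 1.07 to 1.71 FPKM. All these values are of own rows. Processed copies summed to a mean of 57.0 FPKM for Rps27, 20.7 FPKM for Rpl36a and 249.5 FPKM for Rpl3, each above the own row. For Rps27l, Rpl36al, Rpl22, Rpl22l1, Rpl7 and Rpl7l1 the copies summed to less than the own row. The part of the copies in the levels within a pair was not tested.

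The fold changes of the ribosomal protein genes varied with the base composition of their transcripts, in a direction that depended on the libraries. Over the 69 genes, Spearman's rho between transcript GC and log2 fold change was -0.50, and over 10134 protein-coding genes tested it was -0.09. Between single libraries, DKK2 replicate 1 minus either control had -0.55 (control replicate 1) and -0.54 (control replicate 2) over the 69 genes. DKK2 replicate 2 had -0.15 against control replicate 1 and 0.37 against control replicate 2, the opposite sign. The genes share 4 libraries and are not independent replicates, so these are descriptions. Of the 23 genes with the lowest GC (40.6% to 48.7%) 19 were higher with DKK2, with a median of 0.27, and of the 23 with the highest GC (53.6% to 62.4%) 7 were higher, with a median of -0.19. Replicates of the same group showed the relation too. DKK2 replicate 1 minus DKK2 replicate 2 had a rho with GC of -0.55 over the 69 genes and of -0.53 over the protein-coding genes. Control replicate 1 minus control replicate 2 had 0.39 over the 69 genes and 0.47 over the protein-coding genes. DKK2 replicate 1 is thus the library with relatively more signal on low-GC transcripts, and control replicate 1 has more than control replicate 2 on high-GC transcripts. The P-stalk transcripts have 52.9% to 57.3% GC, while Rps3a and Rps24 have 48.0% and 48.1%. The part of base composition in the fold changes was not tested. After a GC correction of each library over all genes with a transcript, rho over the 69 genes was -0.44 and their median fold change 0.06.

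**Figure D4:**
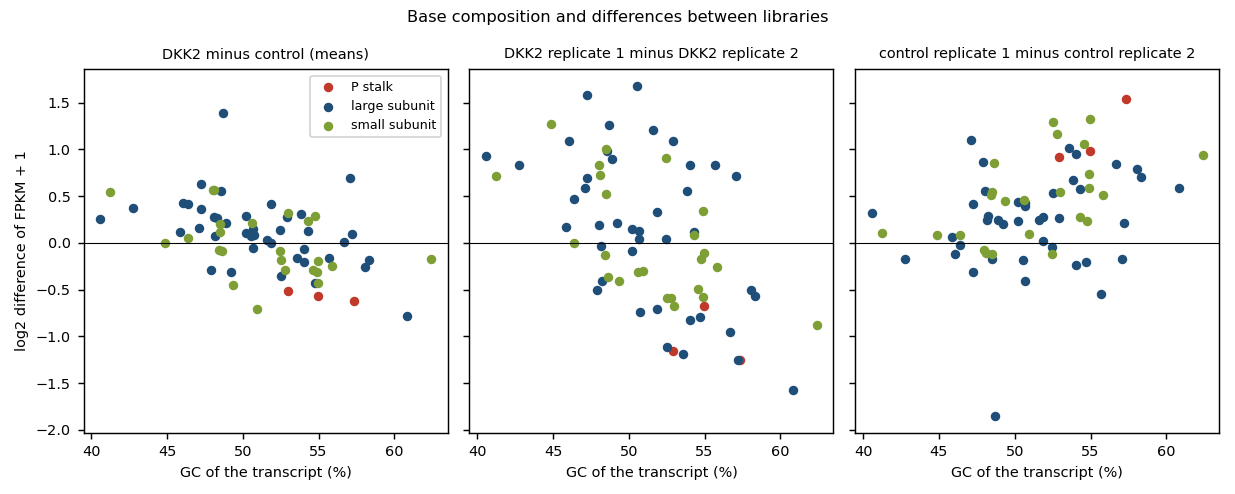
Transcript GC (percent, x axis) against log2 differences of FPKM + 1 (y axis) of 68 of the genes, coloured by P stalk, large and small subunit; the panels show DKK2 minus control, DKK2 replicate 1 minus replicate 2, and control replicate 1 minus replicate 2. Over all 69 genes Spearman's rho is -0.50, -0.55 and 0.39, so the replicates of each group also differ along GC.

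Processed copies hold a large share of the summed FPKM. FPKM is scaled by length, and the rows of a gene and of its copy can differ in length. A share of FPKM is therefore not a share of fragments, and in a sum a fragment of a shorter row weighs more. By sequence (at least 90% identity over at least 80% of the coding sequence) or by name in the table, 1055 annotated copies were placed beside the 83 symbols with a coding sequence, and 608 of them have a row in the table. The rows of 229 copies averaged at least 1 FPKM and those of 27 at least 100 FPKM. Copies together exceeded the gene's own row in 23 of the 69 genes and in 10 of the 15 symbols under 5 FPKM, and stayed under 10% of the sum in 25 of the 69. The sources used here do not say how fragments that match a gene and its copy were assigned, so the rows of a gene and its copy cannot be told apart as sources of RNA. Over all 83 symbols with a coding sequence, whatever their level, rho between the number of annotated copies and the mean FPKM of the own row was -0.25.

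**Figure D5:**
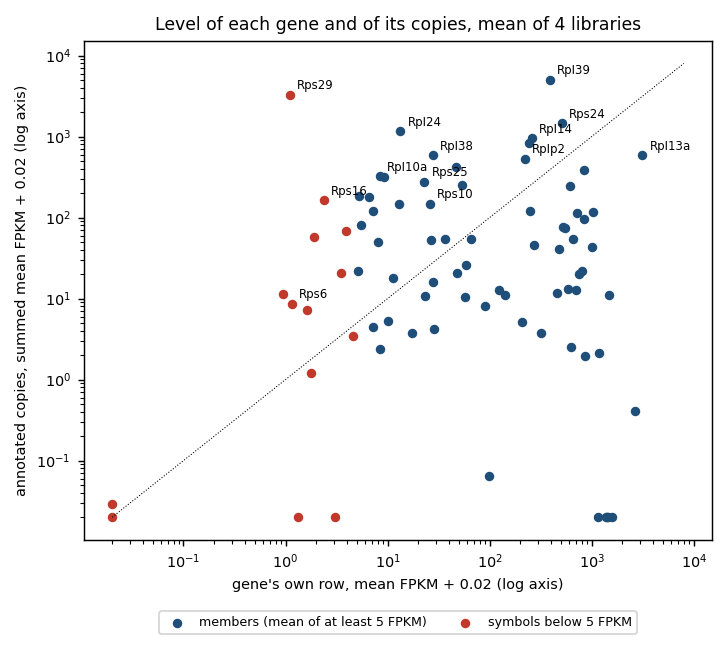
Mean FPKM over 4 libraries of each gene's own row (x axis) and of its annotated copies summed (y axis), both + 0.02 on log axes; blue points are 68 of the genes with at least 5 FPKM, red points 14 of the symbols under 5 FPKM, and the dotted line marks equal values. The copies of Rps29 and Rpl39 sum to 3294 and 5035 FPKM, and Rps25, Rpl38 and Rpl24 lie well above the line.

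Several rows show how little of the sequence separates a gene from its copy. In Rps25, the copy Rps25-ps1 on chromosome 6 differs from the gene on chromosome 9 at 4 of 375 coding bases, T6G, G55A, G159A and C188T, counted from 1 at the start codon with the gene's base first. The first 120 coding bases of both are given from the GENCODE annotation of GRCm38, 5′ to 3′, with the 2 differing bases in capitals.
Rps25: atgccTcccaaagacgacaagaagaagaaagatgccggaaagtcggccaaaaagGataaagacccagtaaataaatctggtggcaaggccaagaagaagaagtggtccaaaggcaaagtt
Rps25-ps1: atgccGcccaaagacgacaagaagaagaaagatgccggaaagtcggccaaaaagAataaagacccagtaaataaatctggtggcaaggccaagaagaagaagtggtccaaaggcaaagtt

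The Rps25-ps1 row held 377.0 and 264.6 FPKM with DKK2, against 203.8 and 241.9 FPKM in the controls. The copy's row is thus several times the gene's in each library, and its DKK2 libraries lie above both controls, opposite to the gene's own row. For the gene with all its copies the log2 fold change was 0.42 (adjusted p = 0.9995 by limma), against -0.70 for the own row alone.

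Rpl39 and its copy Gm15148, both on chromosome X, differ at 4 of 153 coding bases (C22A, G62A, C71T and T152C), shown in capitals over the whole coding sequence.
Rpl39: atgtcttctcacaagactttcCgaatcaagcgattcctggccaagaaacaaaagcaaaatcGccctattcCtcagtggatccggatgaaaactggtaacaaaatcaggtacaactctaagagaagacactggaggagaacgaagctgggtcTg
Gm15148: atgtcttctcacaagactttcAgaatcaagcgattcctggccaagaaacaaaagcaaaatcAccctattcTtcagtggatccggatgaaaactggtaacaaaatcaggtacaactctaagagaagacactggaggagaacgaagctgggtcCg

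Gm15148 held 5116 and 4573 FPKM with DKK2, against 6469 and 3729 FPKM in the controls, several times the row of Rpl39. The highest fold change of the 69 genes, 1.38, became 0.05 once copies were added. Where the row of Rpl39 was lowest, in control replicate 1, the row of Gm15148 was highest.

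Rpl38, a large subunit protein needed for translation of Hox mRNAs in the mouse embryo, has a copy, Rpl38-ps2, with 0 differences in its 210 coding bases. The first 120 of them, the same in both, are shown because a read within them matches both rows.
Rpl38: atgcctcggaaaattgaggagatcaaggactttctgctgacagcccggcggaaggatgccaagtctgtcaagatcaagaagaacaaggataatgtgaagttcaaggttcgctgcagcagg

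The own row of Rpl38 held 36.6 and 24.5 FPKM with DKK2, against 30.5 and 18.7 FPKM in the controls (0.31 ± 0.36). Rpl38-ps2 held 235.4 and 455.1 FPKM with DKK2, against 1147 and 475.5 FPKM in the controls. The sum of Rpl38 and its copies gave -1.07, with both DKK2 libraries below both controls, though DKK2 replicate 2 is close to control replicate 2.

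Other genes repeat this. Rps29, which is under the threshold at 0.584 to 1.43 FPKM, has an identical copy, Gm14303, with 1162 and 2751 FPKM with DKK2, against 7080 and 2107 FPKM in the controls. For Rps24 the copy Rps24-ps3 ordered the libraries as the gene did, with 2048 and 856.1 FPKM with DKK2, against 756.3 and 756.3 FPKM in the controls, and the sum with all copies gave 0.61. The Rpl24 copy Gm9385 had 398.7 and 1238 FPKM with DKK2, against 1334 and 961.8 FPKM in the controls. Rplp2-ps1 was higher than Rplp2 in each library, with 338.3 and 553.6 FPKM in the DKK2 libraries, against 841.7 and 411.0 FPKM in the controls, with the same order of libraries as the 3 stalk genes.

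Adding copies left the overall comparison where it was. The median log2 fold change of the 69 sums was 0.07, with 39 higher. Both DKK2 libraries stood above both controls in 16 sums and below in 2, against 11.8% and 14.7% of all genes tested in the same way, and limma called 0 of 69 at an adjusted p under 0.05 and 0 at an unadjusted p under 0.05, against 1.84% of all genes. In 11 of the 69 genes the sign of the fold change turned when copies were added, and among the 84 symbols only 5 had a sum under 5 FPKM.

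The RefSeq promoters of GRCm38.p6 (250 bases before to 50 after each gene's start) matched 53 of the 69 genes. A run of at least 6 pyrimidines (C or T, coding strand) between 10 bases before and 15 after the start was present in 27 of the 53 (50.9%) and in 24.4% of 27025 genes. The motif CCGGAAG, the core bound by ETS factors such as GABP, was present on either strand of the 300 bases in 22 of the 53 (41.5%) and in 9.1% of all genes. The promoters of the 4 matched genes with the lowest and the 4 with the highest fold change are printed from 80 bases before to 20 after the start, since they show whether both ends of the range look alike. Capitals mark the pyrimidine run at the start and CCGGAAG or its reverse complement CTTCCGG.
Rps25 (chr9:44407634-44407733, plus strand): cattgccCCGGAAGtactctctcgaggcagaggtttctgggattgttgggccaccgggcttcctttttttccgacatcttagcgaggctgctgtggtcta
Rplp2 (chr7:141447571-141447670, plus strand): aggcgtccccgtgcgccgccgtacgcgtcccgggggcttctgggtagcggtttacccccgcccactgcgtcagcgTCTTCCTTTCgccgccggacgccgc
Rplp0 (chr5:115559387-115559486, plus strand): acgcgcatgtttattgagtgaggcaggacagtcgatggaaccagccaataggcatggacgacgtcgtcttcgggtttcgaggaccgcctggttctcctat
Rps7 (chr12:28635934-28636033, minus strand): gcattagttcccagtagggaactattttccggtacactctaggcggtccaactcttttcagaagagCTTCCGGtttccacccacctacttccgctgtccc
Rps24 (chr14:24490598-24490697, plus strand): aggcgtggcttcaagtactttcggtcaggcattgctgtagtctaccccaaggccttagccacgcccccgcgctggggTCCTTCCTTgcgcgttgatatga
Rps3a (chr3:86142649-86142748, minus strand): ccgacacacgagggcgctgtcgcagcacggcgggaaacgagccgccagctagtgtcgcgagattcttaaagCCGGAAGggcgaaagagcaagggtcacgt
Rpl13 (chr8:123102270-123102369, plus strand): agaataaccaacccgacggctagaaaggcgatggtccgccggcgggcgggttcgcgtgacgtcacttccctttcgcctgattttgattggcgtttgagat
Rpl39 (chrX:37085203-37085302, minus strand): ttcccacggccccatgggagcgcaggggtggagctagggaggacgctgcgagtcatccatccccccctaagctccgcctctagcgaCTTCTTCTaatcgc

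Both features appear at both ends of the range of fold changes. Of the 27 genes with the pyrimidine run 14 were higher with DKK2, with a median log2 fold change of 0.01, and of the 26 without it 17, with a median of 0.18. Of the 22 genes with CCGGAAG 12 were higher, with a median of 0.05, and of the 31 without it 19, with a median of 0.07. The run was sought only close to the annotated start. In the printed promoters of Rps25, Rplp0 and Rpl13 a run of pyrimidines crosses the edge of that window, and these genes count as without it. The split by run thus depends on the annotated start and is not a split by TOP tract. A match of letters is a description and not a site of binding, and a window without one says nothing of the factor.

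Other mRNAs with a TOP tract did not pass the test either (0 of 21 by limma; 12 higher and 9 lower with DKK2, median log2 fold change 0.01). Eef1a1, elongation factor 1A, had 4677 and 5460 FPKM with DKK2, against 4461 and 4642 FPKM in the controls. Gnb2l1, which codes for the small subunit scaffold RACK1, had 3608 and 3497 FPKM with DKK2, against 3694 and 3112 FPKM in the controls. Eef1a1 lies above both controls in both DKK2 libraries, by little, and Gnb2l1 overlaps. Of the 21, 2 lie above in this way (9.52%) and 3 below (14.3%), against 11.8% and 14.8% of all genes tested. Fau, whose product is processed to the small subunit protein eS30, was at 1.02 to 1.34 FPKM.

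Of 17 regulators of TOP mRNAs 3 were higher and 14 lower with DKK2, with a median of -0.25, and 0 passed by limma. Larp1, the repressor of TOP mRNA translation, had 24.3 and 45.8 FPKM with DKK2, against 68.0 and 52.8 FPKM in the controls (-0.82 ± 0.38; adjusted p = 0.9996 by limma). Mtor, the kinase upstream of LARP1 and S6 kinase, had 6.12 and 10.8 FPKM with DKK2, against 9.02 and 7.67 FPKM in the controls. Rps6kb1, which codes for S6 kinase, had 28.8 and 24.2 FPKM with DKK2, against 31.9 and 31.1 FPKM in the controls. Larp1 and Rps6kb1 lie below both controls in both DKK2 libraries, and Mtor overlaps. Of the 17, 4 lie below in this way (23.5%) and 0 above, against 14.8% and 11.8% of all genes tested. Of 13 chaperones and partners of ribosomal proteins 2 were higher and 11 lower, with a median of -0.21, and 0 passed by limma. Among them Bccip, whose yeast counterpart is a chaperone of Rpl23, had 123.1 and 174.2 FPKM with DKK2, against 289.1 and 191.5 FPKM in the controls. Both DKK2 libraries stood below both controls in 3 of these 13 (23.1%) and above in 0, against the same shares of all genes. At an unadjusted p under 0.05 limma counted 0 genes in each of these 3 lists.

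The genes most like the ribosomal protein genes were found by the distance between log2 profiles over the 4 libraries, each centred on its mean, among 7938 protein-coding genes with at least 5 FPKM. The median profile of the 69 genes was 0.06 and 0.03 in the DKK2 libraries, against 0.11 and -0.24 in the controls, so that control replicate 2 alone stands low. The nearest were Pla2g4b (distance 0.04), Upf3a (0.04), Rp9 (0.06), Stx8 (0.06) and Xrcc4 (0.06). Upf3a, a factor of nonsense-mediated decay, had 16.0 and 16.1 FPKM with DKK2, against 17.1 and 13.2 FPKM in the controls. With 4 libraries, many genes lie near any such profile.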

How the data were processed

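RNA was sequenced from 4 strand-specific total RNA libraries, per the labels' protocols. The deposited table holds FPKM values, per the file headers, in 4 columns, all matched to samples by name. Per the submitters' processing notes, the tools were TopHat2 2.1.0, Cuffdiff 2.1.0, CASAVA and edgeR and the build was mm9, with no roles given; the annotation, the use of strand and the treatment of multiply mapped fragments are not given in the sources used here. The members, the gene lists and the rule for named genes were chosen with earlier results of these data known. Named genes are the extremes of level and fold change, the genes beside the threshold, the P stalk, paralog pairs and a short list of members with known functions; genes of the other lists, copies and members named as not overlapping were chosen after their values were seen.

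Values were taken as log2(FPKM + 1), which understates changes of low genes. Genes averaging 1 FPKM or more were compared (DKK2 minus control) with limma 3.58.1 in R 4.3.3 (lmFit, eBayes with trend, two-sided, Benjamini-Hochberg over 12275 genes, threshold 0.05), after a test on simulated data. The simulated replicates varied less than these libraries, whose median replicate SD over the 69 genes was 0.44 on the log2 scale. The simulation therefore does not show what could be detected here. No read counts are given, so absolute depth is unknown. With 2 libraries against 2, an exact permutation test cannot go below p = 0.333. Copies were placed with blastn 2.17.0 on GENCODE M21 transcripts (GRCm38) and joined by symbol, since no mm9 genome was used here. Transcript GC came from the same annotation for 82.6% of genes tested and all 69 members. It is that of each gene's first protein-coding transcript by name, which need not be the form these cells express. Alternatives were another pseudocount, filters, quantile normalization, TPM over protein-coding genes, limma without a trend, a replicate block and leaving out each library. The GC correction, the fit on the same genes without it and the sums with copies were added after seeing the data. Same-numbered libraries did not deviate together (r = 0.0117 over genes), so the numbers were not taken as pairs. A few genes are not reported here by name or drawn in the figures.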

Additional observations from a re-analysis of the deposited data

How the results depend on the processing

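In each of the 14 alternatives limma called 0 of the 69 ribosomal protein genes, with 0 to 10 at an unadjusted p under 0.05 (10 without DKK2 replicate 2, where 6.97% of all genes did). The median log2 fold change ran from -0.04 without control replicate 2 to 0.29 without control replicate 1. Over all genes, 4 calls became 0 without a filter on low values and 0 to 0 when a library was left out. The GC correction was fitted on 10134 genes with a transcript and called 0, and the same genes gave 0 without the correction too. As the same-numbered libraries did not deviate together, the replicate block is a value only: it called 8 of all genes and 0 of the 69. On the scale of TPM over protein-coding genes the medians were 348.8 and 417.6 with DKK2, against 363.9 and 322.0 in the controls, a change of unit. No call of the 32 named genes changed, but 20 of these uncalled fold changes changed sign somewhere; the cause was not tested. Rpl3 became -0.014 after the GC correction and -0.0026 in TPM, Rpl4 -0.027 and Rps15a -0.16 after quantile normalization, and with copies Rps25 became 0.42 and Rps28 0.16. Leaving out 1 library gave -0.77 to 0.91 for Rpl10, -0.27 to 0.82 for Rpl11, -0.75 to 0.44 for Rpl13a, -0.16 to 1.42 for Rpl17, -0.21 to 0.72 for Rpl22l1, -0.35 to 0.35 for Rpl3, -0.049 to 0.34 for Rpl32, -1.57 to 0.0086 for Rpl36, -0.12 to 0.32 for Rpl36al, -0.051 to 0.19 for Rpl4, -0.048 to 0.79 for Rpl5, -1.10 to 0.060 for Rplp0, -1.39 to 0.14 for Rplp1, -0.38 to 0.62 for Rps27a, -0.63 to 0.63 for Rps27l, -0.88 to 0.29 for Rps28, -0.33 to 0.18 for Rps3 and -0.017 to 0.44 for Rpsa. A fit that leaves a lone library in a group assumes that it varies like the other group. With 2 libraries a group and unequal depth, differences of the size of the median SE, 0.37, were not detectable for single genes.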
